A study of Mus musculus with 66 samples.

Results

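The synaptic vesicle release genes were taken as the genes whose symbol marks them as a synaptotagmin (Syt), syntaxin (Stx), syntaxin binding protein (Stxbp), vesicle-associated membrane protein (Vamp), Snap protein, synapsin (Syn1 to Syn3), synaptic vesicle glycoprotein (Sv2a to Sv2c) or complexin (Cplx), and 61 of the 24138 listed genes met this rule. Of these 61 genes, 60 were listed above 0 in at least 1 library, 55 reached 1 FPKM (fragments per kilobase of transcript, scaled to library size) in at least 1 library and were tested, and 54 had a mean of at least 1 FPKM. The RNA came from ventral striatum punches, which hold the nucleus accumbens, of male C57BL/6 mice. Wild-type (WT) mice were compared with iMSN-D2RKO mice. The latter carry D2R flox/flox alleles and 1 copy of D1R-CRE, in which the promoter of the dopamine D1 receptor (D1R) drives the Cre recombinase. The target is the dopamine D2 receptor (D2R) of indirect-pathway medium spiny neurons. These cells pass through a stage before birth in which D1R is active too, so the deletion dates from development and other D2R-expressing cells keep the receptor. Mice were injected with saline or with cocaine (20 mg/kg) at ZT3, where ZT is the hour after lights on, and their tissue was taken at ZT7 and ZT11 in the light hours or at ZT15, ZT19 and ZT23 in the dark hours. The ZT3 libraries of each genotype carry no single treatment in the labels and stand for both series. This gives 22 groups of 3 libraries, 66 in all.

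A synaptic vesicle fuses with the presynaptic membrane when a vesicle SNARE (a Vamp) zips together with target SNAREs (a syntaxin and a Snap protein). The complexins hold this complex ready, Syt1 and Syt2 sense calcium and trigger fast fusion, and the synapsins tether the reserve of vesicles. The rule by name also takes in relatives that serve other membranes. Among them Stx5a, Stx6, Stx16 and Stx18 work at the Golgi apparatus or endoplasmic reticulum, Stx7, Stx8, Stx12 and Vamp8 in endosomes and lysosomes, and Snap29 and Stx17 in the fusion of autophagosomes. Snap91 (AP180) shares the symbol but is a clathrin assembly protein that helps to retrieve vesicles, not a SNARE. In the ventral striatum the spiny neurons release GABA onto their targets, while glutamate and dopamine terminals come from cell bodies elsewhere, whose mRNA is mostly outside the punch.

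The libraries differed in ways that the groups do not explain, and these differences touched the release genes. The main axis of variation between replicates took up 43.6% of the within-group variance of 9584 genes. Along it 13 libraries stood apart with scores of 44.3 to 56.1 against -35.9 to 15.1 in the other 53. Of these 13 libraries, 12 came from the dark hours, 6 were WT and 7 iMSN-D2RKO. Summed FPKM ran from 364078 to 465297 in all libraries except replicate 1 of iMSN-D2RKO saline at ZT7, at 690048. That library held the highest or the lowest value of 28 of the 55 tested release genes (50.9%), and 46.3% of all tested genes had an extreme there. Replicate 3 of WT cocaine at ZT15 held an extreme of 20 release genes (36.4%, against 38.0% of all genes). Drd2, the deleted gene, ran from 99.1 to 304 FPKM (median 129) in the 33 WT libraries and from 78.0 to 375 (median 112) in the 33 iMSN-D2RKO libraries, ranges that overlap. Without the libraries that stood apart the medians were 121 and 107 FPKM. A value over the whole transcript in mixed tissue is no check of a deletion in 1 cell type. In tissue RNA, fewer cells of a type and less RNA per cell cannot be told apart.

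The core of the machinery was among the most abundant mRNA of the tissue. On the FPKM scale, which is per length, Snap25, the target SNARE of the presynaptic membrane, had a mean of 893 over the 66 libraries, with a range of 401 to 1262, and ranked 22 among all genes. Vamp2, the main vesicle SNARE, followed with a mean of 399 FPKM and a range of 324 to 696. The 2 ranges overlap in part, so that the highest Vamp2 library lies above the lowest Snap25 library. The release genes together made up between 0.722% and 1.27% of the summed FPKM, with a median of 1.09%.

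Another 11 release genes had a mean of at least 100 FPKM. Among the SNARE regulators they included Cplx2 (315) and Cplx1 (298). Among the synaptotagmins they were the calcium sensor Syt1 (248), Syt11 (213), which lacks calcium binding, and Syt5 (111). Syn1 (182) and Syn2 (107) stood far above Syn3 (9.11). Sv2a, the binding site of levetiracetam, had a mean of 113 FPKM, Sv2b 63.6 and Sv2c 25.9. The neuronal syntaxin Stx1a had a mean of 36.7 FPKM and ran from 14.4 to 80.1. Vamp1 had a mean of 35.1 and the fast calcium sensor Syt2 one of 11.1, both below their paralogs Vamp2 and Syt1 in every library by these ranges (Vamp1 11.6 to 137, Syt2 3.35 to 23.01, Syt1 142 to 363).

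By role, 17 of the 19 target SNAREs, 15 of the 17 synaptotagmins, 10 of the 11 SNARE regulators, 5 of the 7 vesicle SNAREs, all 3 synapsins, all 3 vesicle glycoproteins and Snap91 (73.2) had a mean of at least 1 FPKM. Syt15, Stx11, Stx19, Cplx4, Syt8 and Vamp7 stayed below 1 FPKM in every library. Vamp7, a SNARE of late endosomes, was listed at 0 in all 66 libraries, and an exact 0 in such a table can be a failed estimate. Vamp5 had a mean of 0.76 FPKM and was tested because its highest library, at 1.68, passed 1 FPKM.

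**Figure D1:**
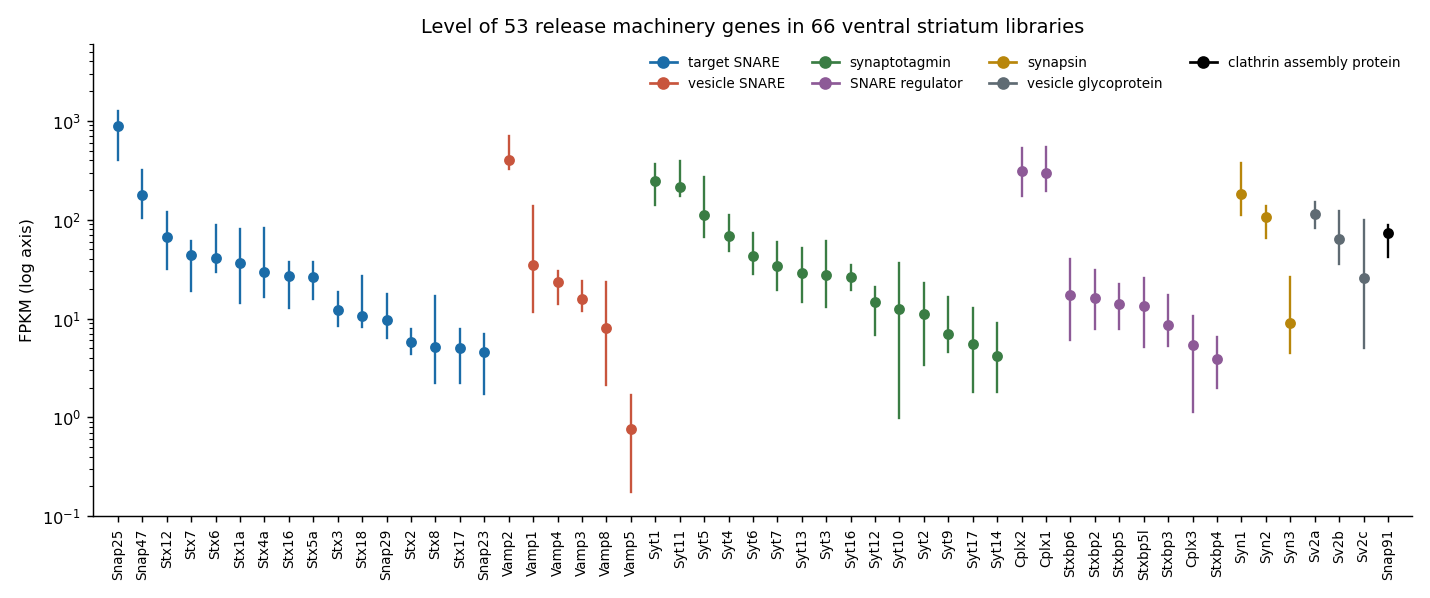
Level of 53 tested release genes in FPKM (log axis), by role. The point is the mean and the line runs from the lowest to the highest of the 66 libraries. Snap25 lies highest at a mean of 893 FPKM, and the longest line belongs to Syt10, from 0.99 to 36.6 FPKM.

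The spread between replicates differed widely among the genes. The median coefficient of variation within a group of 3 was 5.59% for Vamp2, 5.72% for Snap47 and 8.18% for Snap25. It was 32.8% for Vamp1 and 33.0% for Syt10, a synaptotagmin known for the release of growth factor. The highest library was less than 2 times the lowest for 4 of the 55 genes (among them Sv2a, Syt16 and Stx2) and at least 5 times the lowest for 14. Syt10 had the widest range, 37.2-fold, and its lowest value was in replicate 1 of iMSN-D2RKO saline at ZT7. Sv2c ran 19.6-fold, from 5.05 FPKM in that same library to 98.9 in replicate 3 of WT cocaine at ZT15.

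In the 13 libraries that stood apart, several release genes were at another level. Syn1 was at 212 to 371 FPKM (median 298) in them and at 113 to 265 (median 146) in the other 53, so that the ranges overlap little. Syt3, a synaptotagmin with high calcium affinity, was at 13.1 to 16.0 (median 14.4) in them and at 19.4 to 60.4 (median 29.98) in the others, with no overlap. Snap29 was at 10.8 to 17.6 (median 14.9) against 6.36 to 11.1 (median 8.43). The means over the 10 groups that hold libraries of both kinds gave log2 differences of 1.08 for Syn1, 0.91 for Syt10, 0.87 for Stxbp6, 0.86 for Stxbp5l and 0.79 for Stx12, and of -0.84 for Syt3, -0.76 for Stx4a and -0.71 for Syt12. In all 10 groups the same direction was seen for 24 genes, 17 higher and 7 lower, which is 43.6% of the release genes beside 44.4% of all tested genes. A mean difference of more than 1.5-fold was seen for 15 release genes (27.3%, beside 26.8% of all). Both shares lie near those of all genes. Since the 13 libraries were set apart by the data, no test is given for these differences.

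Some release genes followed each other or the markers of single cell types from library to library. After removal of the group means, the closest positive pairs over the 66 libraries were the tomosyns Stxbp5 and Stxbp5l (Pearson's r 0.97 on the log2 scale), Stxbp5l and Syt14 (0.96), Stxbp5 and Syt14 (0.94) and Syn3 and Syt14 (0.93). The closest negative pairs were Syt3 and Snap29 (-0.92) and Syt3 and Stxbp4 (-0.91). All of these genes also followed the score on the main axis between replicates. Within groups their r with the score was 0.90 for Stxbp5, 0.91 for Stxbp5l, 0.91 for Syt14 and 0.80 for Syn3. It was 0.94 for Stxbp4, 0.93 for Snap29 and -0.94 for Syt3. The pairs were not read without the 13 libraries that stood apart. The libraries share tissue and preparation, so these values are a description. Vamp1, a neuronal vesicle SNARE, varied with Pvalb, the marker of fast-spiking interneurons (r 0.83, and 0.80 within groups). Pvalb itself ran from 2.16 to 193 FPKM. Cplx1 (0.56 and 0.52 within groups) and Syt2 (0.47 and 0.44) also varied with Pvalb. These 3 genes followed markers of other cell types as well. Within groups, Vamp1 had an r of 0.75 with the summed oligodendrocyte markers and -0.63 with the summed spiny neuron markers. Syt2 had 0.61 with the oligodendrocyte sum, and Cplx1 had 0.63 with the astrocyte sum. Stx1a varied with Slc17a7, the vesicular glutamate transporter of cortical excitatory neurons (0.87, and 0.81 within groups), and Slc17a7 ran from 1.78 to 233 FPKM. Cplx3 did so at 0.71 and 0.66, Snap25 at 0.51 and 0.54, and Sv2b at 0.35 and 0.45. In the 53 libraries that did not stand apart the values with Pvalb were 0.84 for Vamp1, 0.83 for Cplx1 and 0.38 for Syt2, and those with Slc17a7 were 0.86 for Stx1a, 0.78 for Sv2b, 0.71 for Cplx3 and 0.49 for Snap25. Within groups, r passed 0.5 with Slc17a7 for 4 of 54 release genes, beside 1.22% of 12945 genes with a mean of at least 1 FPKM, and with Pvalb for 2 of 54, beside 4.09%. It was under -0.5 with Pvalb for 5 of 54, beside 1.87%, and with Slc17a7 for 0, beside 0.309%. The part of these cell types in the levels of the release genes was not tested.

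**Figure D2:**
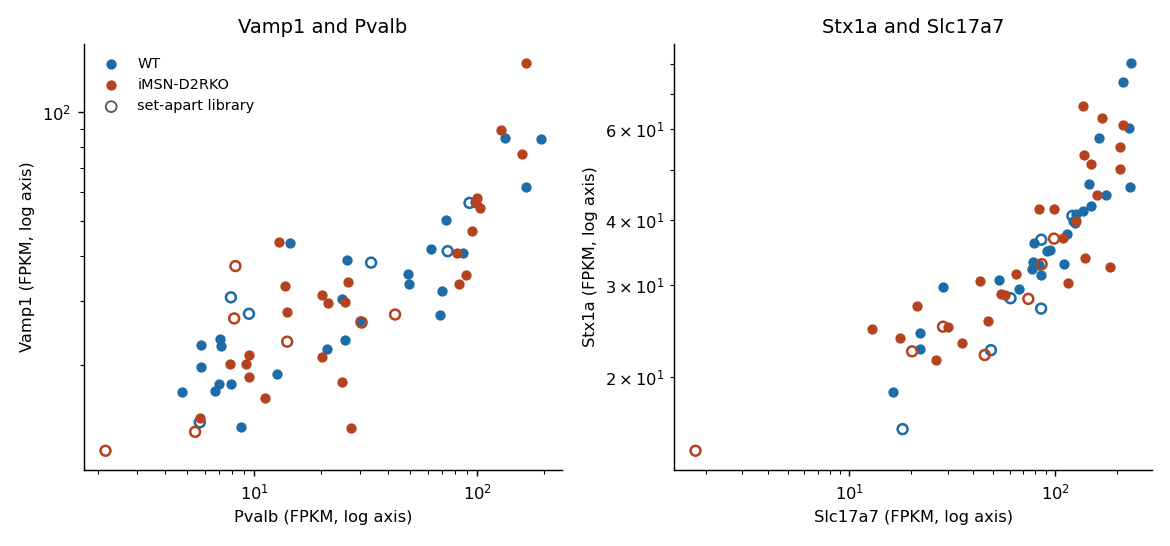
Vamp1 against Pvalb (left) and Stx1a against Slc17a7 (right) in FPKM, both axes log, 1 point for each of the 66 libraries. Open circles are the 13 libraries that stood apart. Libraries with more Pvalb had more Vamp1 (r 0.83), and those with more Slc17a7 had more Stx1a (r 0.87).

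The first comparison asked whether the injection of cocaine changed the mRNA of the release genes over ZT7 to ZT23. No release gene passed an adjusted p of 0.05 by limma in WT mice (0 of 55, beside 0.0137% of all genes, with 0 release genes at an unadjusted p under 0.05, beside 2.49% of all genes). In WT mice Snap25 was at 401 to 1038 FPKM (median 897) in the 15 cocaine libraries and at 763 to 1116 (median 865) in the 15 saline libraries, and the groups overlap. Its log2 fold change was -0.073 ± 0.080 (SE), with a 95% interval of -0.23 to 0.09. For Vamp2 the interval was -0.11 to 0.12 and for Syt1 -0.28 to 0.08. All fold changes here are differences of log2(FPKM + 1), where the added 1 shrinks the changes of weakly expressed genes. The smallest p in this WT contrast over ZT7 to ZT23 belonged to Vamp4, a SNARE of the Golgi and of bulk endocytosis, at -0.10 ± 0.06 (adjusted p = 1). The median log2 fold change was -0.029 over the release genes and 0 over all genes.

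In iMSN-D2RKO mice no release gene passed either (0 of 55, beside 0% of all genes), and 4 had an unadjusted p under 0.05, beside 4.86% of all genes. These were Stx18, Stx8, Syt13 and Snap47, each lower in the cocaine mean. Stx18, a SNARE of the endoplasmic reticulum, had a mean of 10.03 FPKM after cocaine and 12.5 after saline, a log2 fold change of -0.24 ± 0.08 (adjusted p = 0.91). Replicate 1 of iMSN-D2RKO saline at ZT7 held the highest Stx18 value, 27.0 FPKM, and without it the log2 fold change was -0.15. The interval for Snap25 was -0.11 to 0.21 and for Syt1 -0.18 to 0.18. The test of the difference of the cocaine effect between the genotypes passed for 0 of 55 release genes (0% of all genes), and 1 release gene, Stx18, had an unadjusted p under 0.05 (1.85% of all genes).

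At single time points after the injection, 0 of 55 release genes passed in each of the 10 contrasts of cocaine with saline, beside 0% to 0.0205% of all genes. At an unadjusted p under 0.05 the WT contrasts held 3 release genes at ZT7 (1.81% of all genes), 0 at ZT11 (0.683%), 2 at ZT15 (6.79%), 7 at ZT19 (4.9%) and 0 at ZT23 (1.28%). The iMSN-D2RKO contrasts held 17 at ZT7 (22.9%), 0 at ZT11 (0.41%), 2 at ZT15 (1.49%), 7 at ZT19 (16%) and 1 at ZT23 (1.67%). The values closest to the threshold came from ZT7 in iMSN-D2RKO mice. There Snap23, the Snap25 relative of non-neuronal membranes, was at 1.72, 3.96 and 3.94 FPKM in the saline libraries and at 4.62, 6.47 and 4.85 in the cocaine libraries. All 3 cocaine values lie above all 3 saline values, with a log2 fold change of 0.63 (adjusted p = 0.102), and without saline replicate 1 it was 0.34 (adjusted p = 0.787). Syt10 was at 0.986, 9.01 and 7.06 FPKM after saline and at 19.6, 14.3 and 10.7 after cocaine, without overlap. Its log2 fold change was 1.51 (adjusted p = 0.115), and 0.78 without saline replicate 1. In WT mice at ZT19, Syt2 was at 8.23, 13.8 and 14.7 FPKM after saline and at 7.30, 3.35 and 5.85 after cocaine, again without overlap. The log2 fold change of -1.04 had an adjusted p of 0.688. Without the 13 libraries that stood apart, 1 library is left in each arm at ZT19 in WT mice, with Syt2 at 14.7 and 3.35 FPKM, a difference of -1.85. The cocaine library that is left, replicate 2, had the highest score of the other 53 libraries (15.1). With 1 library in each arm no p-value is given.

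The second comparison was that of the genotypes. No release gene differed between iMSN-D2RKO and WT over all conditions (0 of 55, beside 1.56% of all genes), and 7 release genes (12.7%) had an unadjusted p under 0.05, the share seen among all genes (12.7%). The smallest p belonged to Stx4a, a syntaxin of dendritic and other plasma membranes. It ran from 17.6 to 43.9 FPKM (median 23.5) in WT and from 16.5 to 83.3 (median 33.7) in iMSN-D2RKO libraries. The ranges overlap, and the log2 fold change was 0.30 ± 0.09 (adjusted p = 0.0888). With the library score as a covariate it was 0.32 (adjusted p = 1.42e-04), and without the 13 libraries 0.35 (adjusted p = 0.0134). Without replicate 1 of iMSN-D2RKO saline at ZT7 it was 0.27 (adjusted p = 0.12). The score was drawn from the within-group spread of these same data, so p-values with it as a covariate can be too small.

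Syt10 ran from 4.74 to 22.05 FPKM (median 8.69) in WT and from 0.986 to 36.6 (median 13.2) in iMSN-D2RKO libraries, with a log2 fold change of 0.45 ± 0.14 (adjusted p = 0.0938). Without replicate 1 of iMSN-D2RKO saline at ZT7, where Syt10 was lowest, it was 0.52 (adjusted p = 0.0233), and with the score as a covariate 0.43 (adjusted p = 0.00659). The next smallest p belonged to Syt5 (120 against 102 FPKM, 0.21, adjusted p = 0.114), Vamp4 (24.2 against 22.3, 0.11, adjusted p = 0.147) and Cplx3, a complexin of ribbon synapses and some cortical neurons (4.83 against 6.00, -0.28, adjusted p = 0.243).

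At ZT3 0 of 55 release genes passed (0.041% of all genes) and 2, Stxbp2 and Cplx3, had an unadjusted p under 0.05 (2.04%). Stxbp2, a protein of exocytosis in immune and epithelial cells, was at 8.49, 12.7 and 7.87 FPKM in WT and at 17.0, 14.7 and 20.0 in iMSN-D2RKO mice. The groups do not overlap, and the log2 fold change of 0.79 ± 0.27 had an adjusted p of 1. Vamp1 showed how wide the replicates can lie, at 22.5, 43.6 and 40.7 FPKM in WT and at 43.9, 137 and 35.4 in iMSN-D2RKO mice. After saline 0 of 55 passed (0.212% of all genes), with 6 at an unadjusted p under 0.05 beside 11.3% of all genes, and after cocaine 0 of 55 (0.109%), with 3 beside 4.95%. In the cocaine libraries Syt10 had means of 16.4 FPKM in iMSN-D2RKO and 9.94 in WT mice, a log2 fold change of 0.69 (adjusted p = 0.389).

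**Figure D3:**
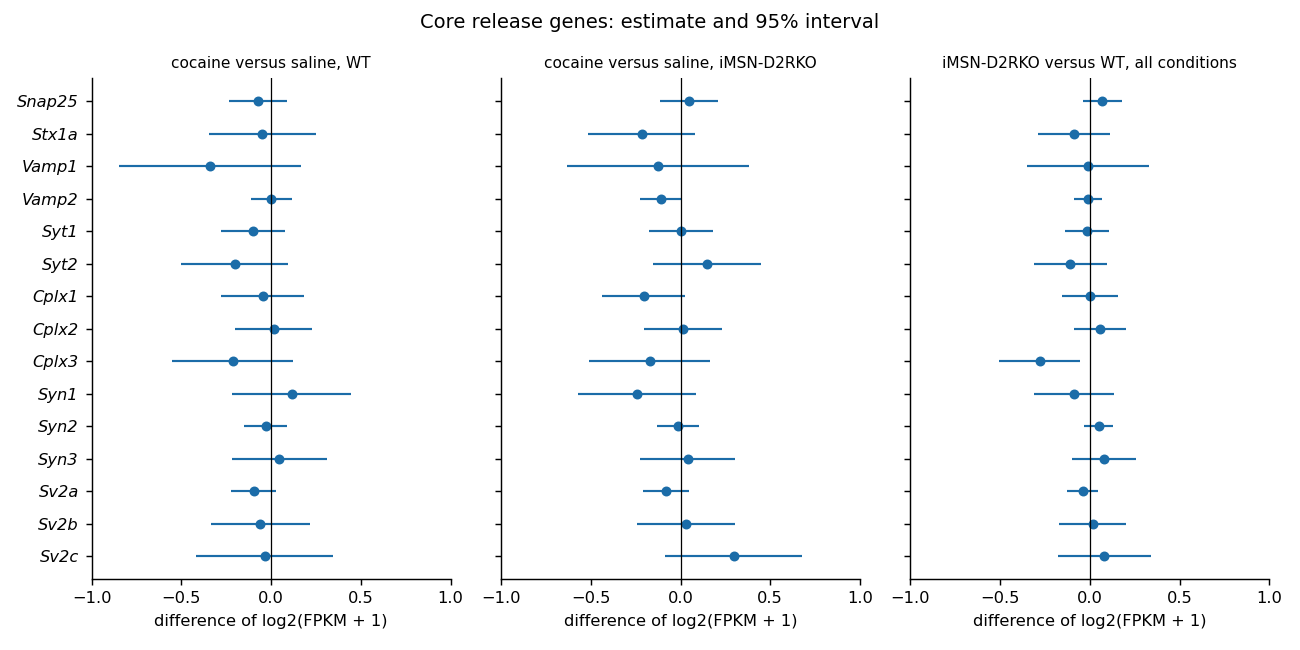
Log2 fold change of log2(FPKM + 1) with its 95% interval for 15 genes of the neuronal release core, in 3 contrasts: cocaine against saline in WT mice, cocaine against saline in iMSN-D2RKO mice, and iMSN-D2RKO against WT over all conditions. None of the 15 genes passed an adjusted p of 0.05 in any of these, and the interval for Snap25 in WT mice runs from -0.23 to 0.09.

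The third comparison was that of the dark hours (ZT15, ZT19 and ZT23, 36 libraries) with the light hours (ZT7 and ZT11, 24 libraries). Over the 4 series of genotype and treatment together, 17 of 55 release genes changed, 13 higher and 4 lower in the dark. This is 30.9%, beside 47.3% of all genes (28.9% higher and 18.3% lower). The median log2 difference was 0.064 over the release genes and 0.036 over all genes. With scaling of each library by its median ratio to the others, 8 release genes were higher and 8 lower. Of the 36 dark libraries 12 were among those that stood apart, of the 24 light libraries 1, and without all 13 such libraries 6 release genes changed (10.9%, beside 16.8% of all genes).

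Snap29, which joins SNARE complexes of autophagosomes and slows the recycling of SNAREs at synapses, had the smallest p. It ran from 6.37 to 10.8 FPKM (median 7.94) in the light and from 6.36 to 17.6 (median 9.55) in the dark. The dark median lies above the light one, and the groups overlap. The log2 difference was 0.39 ± 0.07 (adjusted p = 6.71e-05). Without the 13 libraries that stood apart, Snap29 was at 6.37 to 8.73 FPKM (median 7.93) in 23 light libraries and at 6.36 to 11.1 (median 9.27) in 24 dark ones, with a difference of 0.19 (adjusted p = 2.54e-04). It passed under all 14 alternatives of the processing, with differences of 0.16 to 0.46.

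Syt3 went the other way. It ran from 14.6 to 60.4 FPKM (median 32.8) in the light and from 13.1 to 34.7 (median 25.3) in the dark, a log2 difference of -0.49 ± 0.09 (adjusted p = 1.42e-04). The single light library that stood apart holds the 14.6 FPKM. Without the 13 libraries the light values were 26.1 to 60.4 (median 32.9) and the dark values 19.4 to 34.7 (median 28.6), ranges that still overlap, and the difference was -0.25 (adjusted p = 0.00195). Syt3 passed under all 14 alternatives, with differences of -0.58 to -0.17.

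The same values by time point show where the replicates part. In WT saline mice Snap29 was at 7.93, 7.35 and 7.95 FPKM at ZT7, at 9.38, 9.29 and 9.01 at ZT15 and at 14.1, 14.2 and 9.27 at ZT19. The 3 libraries of ZT15 lie above those of ZT7, and at ZT19 replicates 1 and 2 are among those that stood apart. In WT cocaine mice Syt3 was at 36.2, 31.5 and 32.9 FPKM at ZT11, at 31.9, 30.7 and 32.8 at ZT15 and at 13.8, 19.4 and 15.04 at ZT19. Here the fall lies between ZT15 and ZT19, and 2 of the 3 libraries at ZT19 stood apart. Replicate 2, at 19.4 FPKM, had the highest score of the other 53 libraries (15.1).

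**Figure D4:**
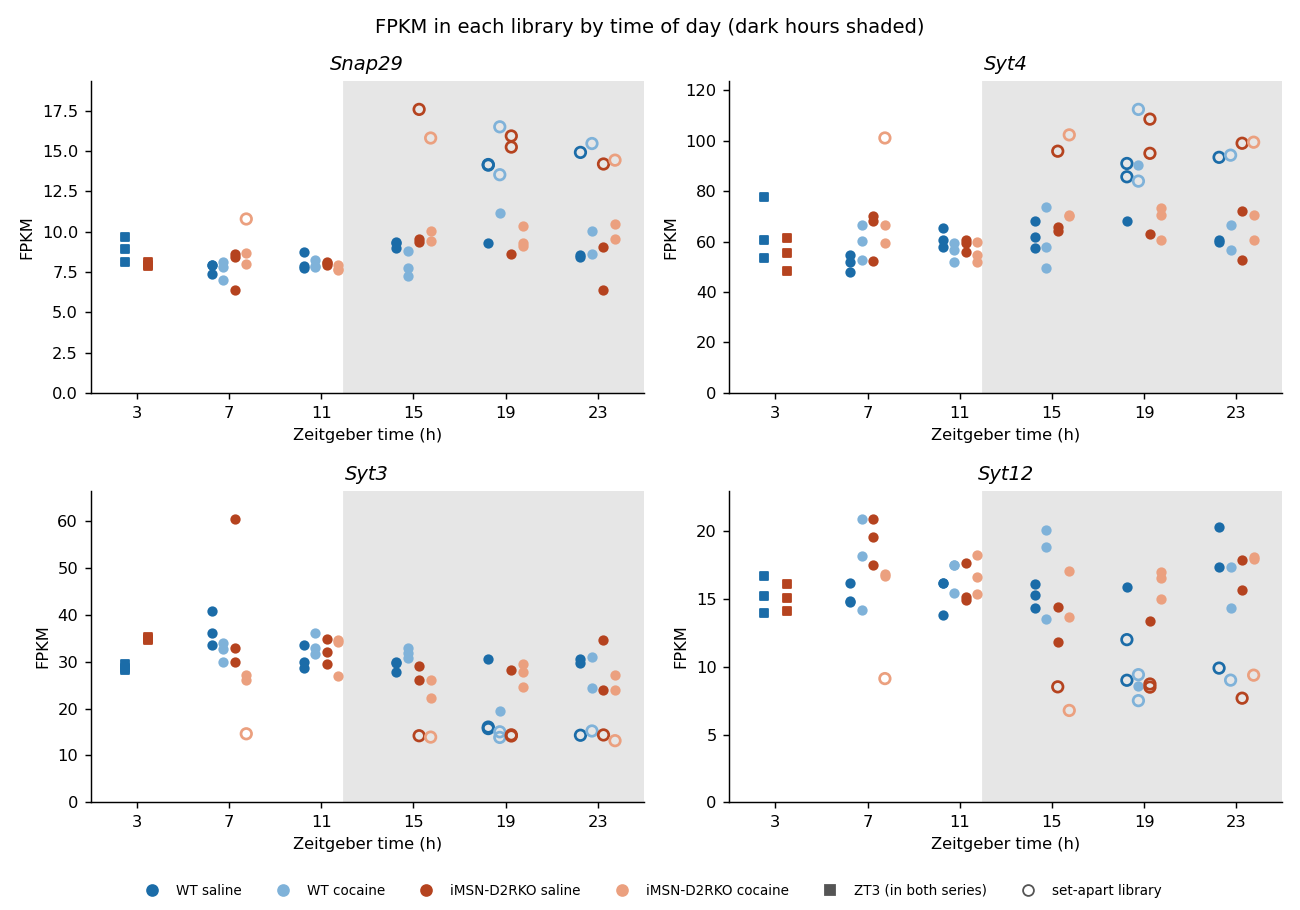
FPKM of Snap29, Syt4, Syt3 and Syt12 in every library by ZT, with the dark hours shaded. Colours are the 4 series of genotype and treatment, squares the ZT3 libraries that stand for both treatments, and open circles the libraries that stood apart. Snap29 and Syt4 lie higher in the dark and Syt3 and Syt12 lower, and the highest values of the first pair and the lowest of the latter are open circles.

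Syt4, a synaptotagmin that does not bind calcium in its first domain, ran from 47.8 to 101 FPKM (median 59.3) in the light and from 49.6 to 112 (median 70.4) in the dark, with a log2 difference of 0.31 ± 0.07 (adjusted p = 6.93e-04). It passed under 13 of 14 alternatives and missed with the library score as a covariate (0.12, adjusted p = 0.0955). Syt12, which lacks calcium binding, ran from 9.13 to 20.9 FPKM (median 16.4) in the light and from 6.78 to 20.3 (median 14.3) in the dark, with a difference of -0.31 ± 0.08 (adjusted p = 0.0037), and it passed under 12 of 14. The ranges of both genes overlap between light and dark.

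The other genes that were higher in the dark were, among regulators of the SNARE complex, Stxbp5l (0.37), Stxbp6 (0.30), Stxbp4 (0.25) and Stxbp5 (0.24). Among target SNAREs they were Stx12 (0.26), Snap23 (0.16) and Stx7 (0.14), and among synaptotagmins Syt10 (0.51), Syt14 (0.23) and Syt1 (0.16). Syn3, the least abundant synapsin, also rose (0.24). Stx5a, a Golgi syntaxin, fell by 0.19 and Syt2 fell by 0.27. Of these genes Syt1 belongs to the abundant core, and its adjusted p was 0.0415. Snap25, Vamp2, Stx1a, Cplx1, Cplx2, Syn1, Syn2 and all 3 Sv2 genes did not pass. Vamp2 was at 345 to 696 FPKM (median 402) in the light and at 324 to 468 (median 383) in the dark. Without the 13 libraries Vamp2 passed as lower, Stx4a passed as higher in the dark, and Snap29, Syt3, Syt4 and Syt12 were the only ones of the 17 that still passed. With the score as a covariate 5 release genes passed: Snap29, Stx18 and Stx4a were higher, and Stx17 and Syt3 lower.

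Marker sums overlapped between light and dark hours. The summed FPKM of the 6 astrocyte markers was 395 to 724 (median 464) in the light and 300 to 730 (median 525) in the dark, and that of the 7 oligodendrocyte markers 2111 to 5827 (median 2991) and 1859 to 3849 (median 2945). The 8 markers of cortical excitatory neurons summed to 26.0 to 335 (median 157) and 13.5 to 350 (median 138), with Emx1 and Neurod1 at 0 in some library. The 10 spiny neuron markers were present in every library, with sums of 2925 to 15337 (median 4000) and 3076 to 6471 (median 4342). Without the libraries that stood apart the oligodendrocyte medians were 3059 in the light and 3284 in the dark. Between the 13 libraries that stood apart and the other 53, the medians were 2415 and 3214 for oligodendrocytes, 610 and 482 for astrocytes, 1573 and 1161 for interneurons, 126 and 102 for endothelial cells, 4655 and 4159 for spiny neurons and 154 and 160 for cortical excitatory neurons, and Drd2 was at 228 and 118 FPKM. Within the spiny neuron list the mean of Adora2a was 92.1 FPKM in the 13 and 190 in the others, and that of Penk 2202 and 1793. The part of these values in the differences of the release genes was not tested.

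**Figure D5:**
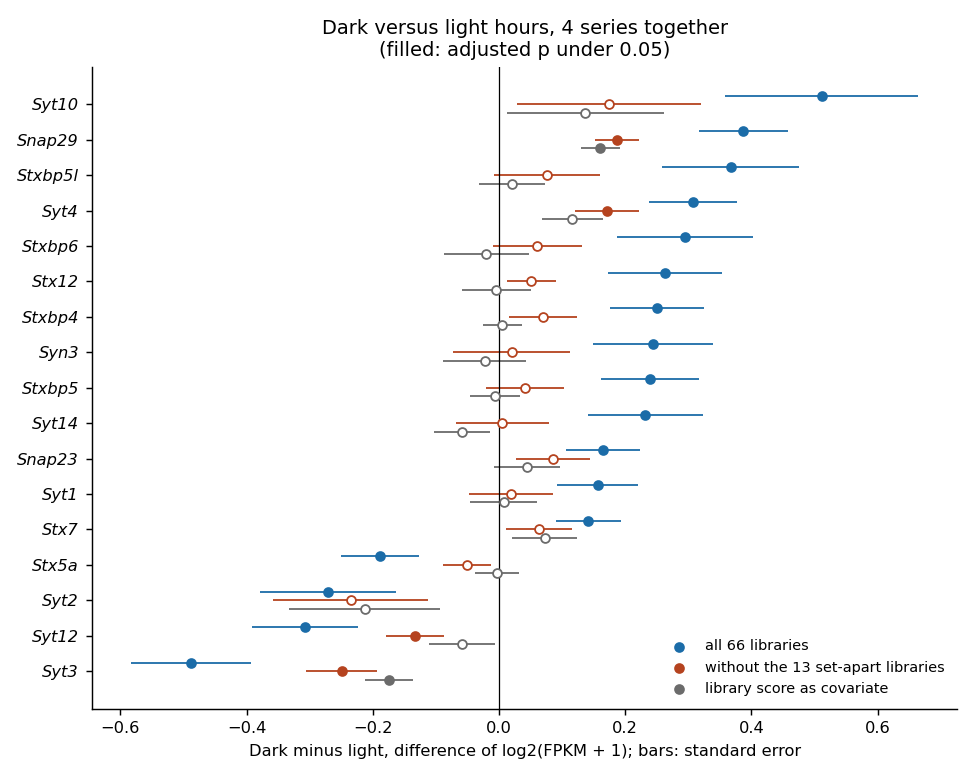
Log2 difference between dark and light hours (± SE) of the 17 release genes called over the 4 series, in all 66 libraries, without the 13 libraries that stood apart, and with the library score as a covariate. Filled symbols passed an adjusted p of 0.05. Snap29 and Syt3 are filled in all 3 settings, and 5 genes turn below 0 with the covariate.

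Within single series, release genes were called in iMSN-D2RKO saline mice alone, where 4 rose and 2 fell (10.9%, beside 9.38% of all genes, 5.85% higher and 3.54% lower), and 16 had an unadjusted p under 0.05, beside 37.8%. Syt10 (1.16, adjusted p = 0.0262), Stxbp6 (0.71), Snap29 (0.46, adjusted p = 0.0393) and Snap23 (0.38) were higher in the dark, and Syt3 (-0.73, adjusted p = 0.0254) and Syt12 (-0.58) lower. Without replicate 1 at ZT7, one of the 6 light libraries of this series, none of the 6 passed. The differences were then 0.80 for Syt10, 0.55 for Stxbp6, 0.39 for Snap29, 0.24 for Snap23, -0.58 for Syt3 and -0.55 for Syt12 (adjusted p of 0.0894 to 0.16), and the calls over all genes then went from 1374 to 95. In WT saline mice 0 of 55 passed (0.0615% of all genes), in WT cocaine mice 0 (5.72%) and in iMSN-D2RKO cocaine mice 0 (0.239%). At an unadjusted p under 0.05 these series held 7 (19.7% of all genes), 10 (29.6%) and 1 (5.7%) release genes. Snap29 was higher in the dark mean of each of them, by 0.37 (adjusted p = 0.19), 0.40 (adjusted p = 0.0722) and 0.32 (adjusted p = 0.719). The test of the difference between the genotypes passed for 0 release genes (0% of all genes), and that between the treatments for 0 (0.00683%). Each had 1 release gene at an unadjusted p under 0.05, beside 3.42% and 1.71% of all genes. A call in one series and not in another is therefore not shown to differ between them.

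The study sampled the day to look for rhythms, and the fourth comparison applied the JTK test for rhythms with periods of 20 or 24 h to the 18 libraries of each series, with the call at an exact p under 0.01 as corrected for the periods and phases tried. The series of 1 genotype share their ZT3 libraries, so each is described for itself. The summed FPKM of 5 choroid plexus markers was 71.5 to 122 in the WT and 62.0 to 177 in the iMSN-D2RKO libraries at ZT3. After ZT3 the medians were 8.92 and 7.87 in WT saline and cocaine, and 11.2 and 10.3 in iMSN-D2RKO saline and cocaine mice. Single later libraries were higher, up to 1145. The ZT3 point thus differed in tissue content, and its part in the rhythm calls was not tested. In WT saline mice 6 of 55 release genes were called (10.9%, beside 9.81% of all genes), and 2 of them, Stxbp5l and Syt6, also had a Benjamini-Hochberg adjusted p under 0.05. In WT cocaine mice 4 were called (7.27%, beside 7.61%), 1 of them also after adjustment. In iMSN-D2RKO saline mice 2 were called (3.64%, beside 2.58%), and in iMSN-D2RKO cocaine mice 0 (1.1% of all genes), with 0 at a p under 0.05. These shares lie near those of all genes in each series.

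In WT saline mice the lowest exact p was that of the tomosyn Stxbp5l, 5.59e-04, with a peak at ZT21. It was called under 4 of 9 alternatives and was not called with the library score removed. Syt6 had an exact p of 0.00173 and a peak at ZT19. Its values were 35.4, 28.2 and 32.9 FPKM at ZT7 and 63.1, 53.9 and 46.7 at ZT19, so that the groups do not overlap. Syt14, with an exact p of 0.00223 and a peak at ZT17, was at 3.63, 3.06 and 2.95 FPKM at ZT7 and at 6.12, 5.64 and 3.69 at ZT19, again without overlap. At ZT19 replicates 1 and 2 of this series are among the libraries that stood apart. Replicate 3, which did not, held 46.7 FPKM of Syt6 and 3.69 of Syt14, the latter next to the 3.63 at ZT7. Snap29 (exact p = 0.00243) peaked at ZT19, and Stx7 (exact p = 0.00745), a syntaxin of late endosomes, at ZT23. Stx7 was at 40.5, 37.6 and 40.4 FPKM at ZT7 and at 61.0, 48.1 and 46.2 at ZT23, where replicate 1 stood apart. Snap47, a Snap25 relative of inner membranes, which peaked at ZT5 (exact p = 0.00223), had some of the tightest replicates, with 160, 162 and 160 FPKM at ZT15 and 170, 191 and 191 at ZT23. The best period was 24 h for Stxbp5l and Stx7, and 20 h for Syt6, Syt14, Snap29 and Snap47. A fit of 20 h does not repeat at the same ZT each day, so its peak is not a fixed hour of the light cycle.

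In WT cocaine mice Syt3 had an exact p of 4.86e-04 and a peak at ZT11, and it was called under 7 of 10 alternatives. Syt7, the slow calcium sensor of asynchronous release, also peaked at ZT11 (exact p = 0.00223). It was at 46.4, 37.0 and 38.8 FPKM at ZT11 and at 21.6, 19.3 and 25.9 at ZT19, without overlap. At ZT19 replicates 1 and 3 stood apart, and replicate 2, which did not, was at 19.3 FPKM. Replicate 2 had the highest score of the other 53 libraries (15.1), so it is no clean check of the fall. Stx7 (exact p = 0.00223, peak at ZT21) and Stx18 (exact p = 0.00371, peak at ZT23) were the other calls. In iMSN-D2RKO saline mice Syt12 (exact p = 0.00533, peak at ZT9) and Syt3 (exact p = 0.00745, peak at ZT7) were called. The best period in WT cocaine mice was 20 h for Syt3 and Syt7, and 24 h for Stx7 and Stx18. For iMSN-D2RKO saline mice it was 20 h for Syt12 and 24 h for Syt3. Apart from Syt3 in WT cocaine mice, each call held under 4 or 5 of its 9 or 10 alternatives. Without the libraries that stood apart, 1 library is left at ZT19 in WT saline, in WT cocaine and in iMSN-D2RKO saline mice. The p-values of that setting are therefore not given. With the library score removed, Syt3 in WT cocaine mice was at an exact p of 0.0108. Syt14 and Snap47 in WT saline mice were then at 0.0981 and 0.0141. Stx7 in WT saline mice (0.00339), Stx18 in WT cocaine mice (0.00533) and Syt3 in iMSN-D2RKO saline mice (0.00371) were the calls that remained.

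Promoter sequence was read for the 2 genes that passed in the dark under every alternative, Snap29 and Syt3. Syt14 and Syt6 were read too, the only genes called as rhythmic in WT saline mice with a listed promoter that holds the E-box CACGTG. This motif is bound by the clock factors CLOCK and BMAL1. For Syt6 3 promoters are listed, and the one shown was taken because it holds the E-box. Each sequence is the 250 bases before the start in RefSeq (GRCm38.p6), read 5′ to 3′ on the strand of the gene, with the E-box in capitals. Snap29 lies on the plus strand at chr16:17405750-17405999, Syt3 on the plus strand at chr7:44383876-44384125, Syt14 on the minus strand at chr1:193035776-193036025 and Syt6 on the plus strand at chr3:103574995-103575244.
Snap29: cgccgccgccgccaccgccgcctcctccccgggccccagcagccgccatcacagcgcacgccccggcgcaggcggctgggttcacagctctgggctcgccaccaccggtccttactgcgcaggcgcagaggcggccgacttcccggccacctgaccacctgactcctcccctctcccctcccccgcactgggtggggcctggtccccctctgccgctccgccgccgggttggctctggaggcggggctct
Syt3: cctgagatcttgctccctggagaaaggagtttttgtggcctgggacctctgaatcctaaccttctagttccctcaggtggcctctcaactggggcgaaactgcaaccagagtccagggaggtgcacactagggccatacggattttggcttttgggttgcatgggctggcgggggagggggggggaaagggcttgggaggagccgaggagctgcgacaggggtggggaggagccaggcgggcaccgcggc
Syt14: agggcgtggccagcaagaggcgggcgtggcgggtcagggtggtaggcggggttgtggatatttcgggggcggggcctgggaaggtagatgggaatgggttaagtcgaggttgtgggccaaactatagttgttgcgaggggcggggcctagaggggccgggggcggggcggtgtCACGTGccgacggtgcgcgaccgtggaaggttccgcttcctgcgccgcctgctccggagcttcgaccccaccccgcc
Syt6: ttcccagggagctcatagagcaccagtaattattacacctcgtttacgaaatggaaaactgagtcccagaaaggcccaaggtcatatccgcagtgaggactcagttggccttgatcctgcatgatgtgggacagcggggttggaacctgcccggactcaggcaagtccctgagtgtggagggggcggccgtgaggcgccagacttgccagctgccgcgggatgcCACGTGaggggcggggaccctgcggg
The Snap29 window is 76.8% G and C and the Syt3 window 62.4%, against a median of 52.4% over all promoters, and neither holds the E-box. In Syt14 the E-box begins 77 bases and in Syt6 26 bases before the start. The palindrome CACGTG reads alike on both strands and was present in 6.02% of 32851 promoters and in 8 of 62 promoters (12.9%) listed for the 47 release genes with an entry. These 8 promoters belong to Cplx3, Stx6, Stxbp2, Sv2b, Syt14, Syt6 and Vamp4. The D-box TTATGTAA, searched on both strands, was present in 0.819% of all promoters and in 0 of 62, and the cAMP response element TGACGTCA in 1.55% and in 2 of 62, those of Stxbp3 and Syn1. A match describes the letters of the window and shows no binding.

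The other genes of the pathway, a list of 54 active zone, priming, vesicle and endocytosis genes, were counted in the same comparisons. Between dark and light hours over the 4 series, 23 of the 54 tested entries (Rims1 has 2) were higher and 5 lower in the dark, beside 28.9% and 18.3% of all genes. Among them the active zone scaffolds Ppfia2 (0.39, adjusted p = 1.13e-04) and Erc2 (0.35) and the endocytic scaffold Itsn1 (0.44) were higher, and the vesicle proteins Syngr2 (-0.37, adjusted p = 2.95e-04) and Scamp5 (-0.18) lower. In iMSN-D2RKO saline mice 5 were higher and 0 lower (9.38% of all genes called), and in WT cocaine mice 1 was higher and 0 lower (5.72%). These dark and light calls are from the fit of all 66 libraries and were not looked at in other settings. Without the 13 libraries the calls over all genes for the 4 series went from 47.3% to 16.8%. In iMSN-D2RKO saline mice they went from 1374 to 95 without replicate 1 at ZT7. Between the genotypes over all conditions, where 1.56% of all genes were called, 2 were higher in iMSN-D2RKO mice, Rab3c (0.24 ± 0.06, adjusted p = 0.0321), a GTPase of synaptic vesicles, and Syp (0.25 ± 0.06, adjusted p = 0.0325), which encodes synaptophysin. When 1 replicate number was left out neither passed, with differences of 0.21 to 0.27 for Rab3c and 0.21 to 0.29 for Syp. Without the 13 libraries Rab3c passed (0.27, adjusted p = 0.00462) and Syp did not (0.25, adjusted p = 0.111), and Syp missed with median ratio scaling too (0.23, adjusted p = 0.0596). With the score as a covariate both passed (Rab3c 0.23, adjusted p = 4.82e-05, and Syp 0.26, adjusted p = 0.00141). The score comes from the same data, so these 2 p-values can be too small. In the comparisons of cocaine with saline, single time points included, 0 of 54 passed.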

How the data were processed

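The deposited table holds FPKM, which the authors made from stranded poly(A) reads with TopHat, Bowtie and Cuffnorm on mm10 (CASAVA 1.8.2 for base calls, per the submitters' processing notes). The annotation release is not given in the sources used here. FPKM keep no read numbers, so the depth of each library is unknown and no counting interval is given. The ZT3 libraries are listed in 2 columns each and were used once. Groups were compared with limma 3.58.1 (R 4.3.3) on log2(FPKM + 1) in 1 fit of all 66 libraries with a trend, over the 14643 genes that reach 1 FPKM in any library, and p-values were adjusted by Benjamini-Hochberg over all of them. P-values measure the spread between these samples, since the labels do not say that each is a separate animal. The genes named are those called, the 5 with the smallest p in each comparison, the 10 highest in level and a list of 17 neuronal release genes, of which 2 are not reported here. Genes and lists were chosen with earlier results of these data known. Rhythms followed JTK_CYCLE (exact p times 11, Dixon filter at 95%), and the handling of ties between time points was settled after several tries by setting p-values beside those of the study's own table. The library score is the position on the first principal axis of log2(FPKM + 1) within groups, and its widest gap set the 13 libraries apart. It is taken from the spread that the tests use, so p-values with the score as a covariate can be too small. The limma steps were tested on simulated data in which each gene and library varied independently. Those data hold no axis shared between libraries, so they cannot check the calls between dark and light hours against it. Alternatives left out replicates or single libraries, changed filter, pseudocount or scaling, or took the library score as covariate. Settings without single named libraries were added after seeing the data.

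Replicate numbers did not pair libraries (median r of the deviations -0.0027 over 693 pairs with the same number).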

Additional observations from a re-analysis of the deposited data

How the results depend on the processing

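Counts below are release genes called. Without the 13 libraries that stood apart, the call counts were 1 for iMSN-D2RKO against WT over all conditions (0 in the report), 2 in the cocaine libraries (0), 4 for dark against light in WT cocaine mice (0), 0 in iMSN-D2RKO saline mice (6) and 6 over the 4 series (17). They were 4 over the time points after cocaine (0), all of them (Syt2, Syt12, Stx12 and Syn1) at ZT19 in WT mice, where 1 library per arm is left and is assumed to vary like the other groups. There was 1 rhythm each in WT cocaine (4) and iMSN-D2RKO saline mice (2), with 1 library left at ZT19 in both series. With the library score as a covariate they were 5 for the genotypes over all conditions, 2 after saline and 2 after cocaine. For dark against light they were 1 in each of the 4 series and 5 over the 4 together, and 1 over the time points. With the score removed, rhythms were 3 in WT saline (6), 2 in WT cocaine and 2 in iMSN-D2RKO cocaine mice (0). With the fit of the contrast's libraries alone, dark against light gave 1 call in WT cocaine and 0 in iMSN-D2RKO saline mice. With ZT3 counted as light the latter had 11. At a rhythm threshold of 0.05 the calls were 14, 7 and 4 in WT saline, WT cocaine and iMSN-D2RKO saline mice.

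Over the settings without 1 replicate number, dark against light gave 3 to 22 calls over the 4 series, 0 to 11 in iMSN-D2RKO saline and 0 to 1 in WT cocaine mice. The time points gave 0 to 4, and rhythms were 1 to 5 in WT saline, 0 to 3 in WT cocaine and 0 to 4 in iMSN-D2RKO saline mice. Among settings chosen after seeing the data, leaving out replicate 1 of iMSN-D2RKO saline at ZT7 gave 2 calls for the genotypes, and 0 calls for dark against light and 0 rhythms in that series. Leaving out replicate 3 of WT cocaine at ZT15 gave 1 call in WT cocaine mice for dark against light. Leaving out both gave 2 calls there, 2 for the genotypes and 0 in iMSN-D2RKO saline mice. With the score as a covariate 5 genes called over the 4 series turned below 0: Syt14 (-0.058), Stxbp5 (-0.0061), Syn3 (-0.023), Stxbp6 (-0.020) and Stx12 (-0.0040). The cause of these changes was not tested.

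The replicate block gave 17 calls over the 4 series (13 higher, 4 lower) and 6 in iMSN-D2RKO saline mice, and it changed no call count in the other comparisons. The replicate numbers do not pair the libraries: same-numbered pairs had a median r of -0.0027 and others 0.0032, and 29.6% of the 693 pairs passed 0.1. In all, 207 call counts stayed within 1.5 times their value and 47 did not. The 207 include counts that were 0 in the report and stayed 0, so they do not measure how stable the calls are. FPKM give no depth, so low genes cannot be told from unsampled ones.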
